A study of Homo sapiens and Mus musculus with 33 samples.

Results

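T-poor 3′ UTRs are annotated human 3′ untranslated regions in which thymine makes up 22% or less of the bases on the transcript's strand. They were taken from the SLAM-seq tables of Jurkat cells as rows of at least 300 and under 3000 bases with a T fraction of 0.22 or less, off the mitochondrial chromosome, with 300 or more reads over 9 libraries. Annotated rows overlap, so each group of overlapping rows was represented by its most read row. The rule found 1163 rows among 122255 annotated rows, which form 68330 groups. The other 7529 rows of the same length and read window, with a T fraction above 0.22, are called the rest of the window. The rule used length, base composition and summed reads, and no comparison between treatments. The sequences of the rows themselves were not used here.

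The 9 libraries come from Jurkat T Clone E6-1, a single clone of a human T cell leukaemia line. A set of 3 libraries was treated with CPT at 50 nM, a set of 3 with ETO at 1 µM, and a set of 3 is labelled control. All 9 libraries are titled as labelled with 4sU (4-thiouridine), so the controls carry the label too and none of the 9 measures the T-to-C rate without it. The sources used here do not give the time of treatment, the 4sU dose or the vehicle of the controls. Nothing says whether the 3 libraries of a group came from separate cultures, so a p-value covers the spread among these libraries alone, which may be technical. In bulk RNA, fewer cells with a transcript and less of it per cell cannot be told apart.

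A 3′ UTR is the stretch of a messenger RNA between the stop codon and the poly(A) tail. It holds binding sites for microRNAs and for proteins that set the stability, place and translation of the message, and the T-rich (in RNA, U-rich and AU-rich) elements are the best known of those that shorten a message's life. In SLAM-seq, 4sU enters new RNA in place of uridine, iodoacetamide alkylates it, and the converted base is read as C in place of T during sequencing. A T-poor row offers few positions at which new RNA can be seen, and the T-to-C rate used here is the number of T-to-C conversions divided by the number of Ts covered by reads. Sequencing started from the poly(A) end of the RNA, so a row's read count follows molecules and not transcript length.

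The 1163 rows had a median length of 799 bases against 1198 in the rest of the window, and a median of 4208 reads over the 9 libraries against 6292. Thymine made up a median of 20.1% of their bases and ranged between 7.37% and 22%. A read on a T-poor row covered a median of 18.1 Ts, against 27.3 Ts in the rest of the window. Of the T-poor rows 978 (84.1%) ended at the annotated 3′ end of a gene, 920 of them a protein-coding gene and 52 a long non-coding RNA gene. A further 109 lay inside a gene, 72 matched no gene and 4 matched several. Chromosome 19 held 193 of the T-poor rows (16.6%, against 5.64% of the rest of the window) and chromosome 16 held 124 (10.7% against 3.9%), while chromosome 13 held 4 (0.344% against 2.05%). In 100 rows more than 10% of the reads mapped to several places, and in 85 of these more than 50% did.

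Libraries held between 19049328 and 40839672 reads over the groups of rows. The mitochondrial share of these reads was 5.31 to 6.68% in CPT libraries, 2.88 to 3.03% in ETO libraries and 1.05 to 1.24% in control libraries. T-poor rows took 4.86 to 4.88% of the nuclear reads in CPT libraries, 4.38 to 4.61% in ETO libraries and 4.26 to 4.33% in control libraries, 3 ranges that do not overlap. Reads of 12 T cell markers summed to 2455 to 2521 CPM (read counts scaled to library size) in CPT libraries, 2455 to 2486 in ETO libraries and 2448 to 2581 in control libraries, with 8 of the 12 above 1 CPM. CD3D and LCK were among the 8, the recombination gene RAG1 averaged 2.25 CPM in CPT, 9.79 in ETO and 19.2 in control libraries, and TRAC, TRBC1 and TRBC2 had no row that carried their name. The 4 B cell markers summed to 3.23 to 5.10 CPM in CPT, 2.05 to 3.47 in ETO and 1.98 to 2.72 in control libraries, the 5 myeloid markers summed to at most 1.71 CPM and the 6 erythroid markers to at most 1.12 CPM in any library, and of the 3 fibroblast markers only COL1A1 passed 1 CPM. The fibroblast sum was 16.2 to 22.4 CPM in CPT, 11.8 to 15.0 in ETO and 8.21 to 9.14 in control libraries, 3 ranges that do not overlap. The part of the mitochondrial share and of these marker sums in the results below was not tested.

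Total reads of T-poor 3′ UTRs were more often higher than lower in treated cells. After CPT, 441 of the 1163 rows rose (37.9%) and 232 fell (19.9%) relative to control, with edgeR's quasi-likelihood test at a Benjamini-Hochberg adjusted p under 0.05. The background over all 17549 rows tested was 23% higher and 24.6% lower. In the rest of the window 24.1% of rows were higher and 30.5% lower. The median log2 fold change of T-poor rows was 0.16, against −0.05 in the rest of the window and −0.00 over all rows tested. Leaving out each library in turn, 532 of the 673 calls held in all 9 fits.

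After ETO, 307 T-poor rows rose (26.4%) and 226 fell (19.4%) relative to control, beside a background of 17.1% higher and 16.9% lower. The rest of the window had 20.4% higher and 20.8% lower. At the median the log2 fold change was 0.05 for T-poor rows and −0.00 for the rest of the window, and 360 of the 533 calls held in all 9 fits. Between the treatments, 326 T-poor rows were higher in CPT than in ETO (28.0%) and 144 were lower (12.4%), beside a background of 13.5% higher and 16.3% lower. The median log2 fold change of CPT over ETO was 0.17 for T-poor rows and −0.02 for the rest of the window, and 291 of the 470 calls held in all 9 fits. The comparisons with control share the 3 control libraries.

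For CPT against control the share of rows called followed the T fraction across the window. In that comparison, 37.9% of rows up to a T fraction of 0.22 were higher, and 34.7%, 27.1%, 20.6% and 15.9% of rows in the classes above it up to 0.26, 0.30, 0.34 and beyond 0.34. The share called lower went the other way, with 19.9%, 21.1%, 27.6%, 33.6% and 38.1%. For ETO against control the share called higher was 26.4% in T-poor rows and 26.7%, 24.1%, 17.3% and 14.6% in the classes above, so that T-poor rows and the next class lay side by side. The share called lower after ETO was 19.4% in T-poor rows and 16.8%, 17.7%, 22.7% and 25.3% in the classes above, and did not follow the T fraction at the low end.

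**Figure D1:**
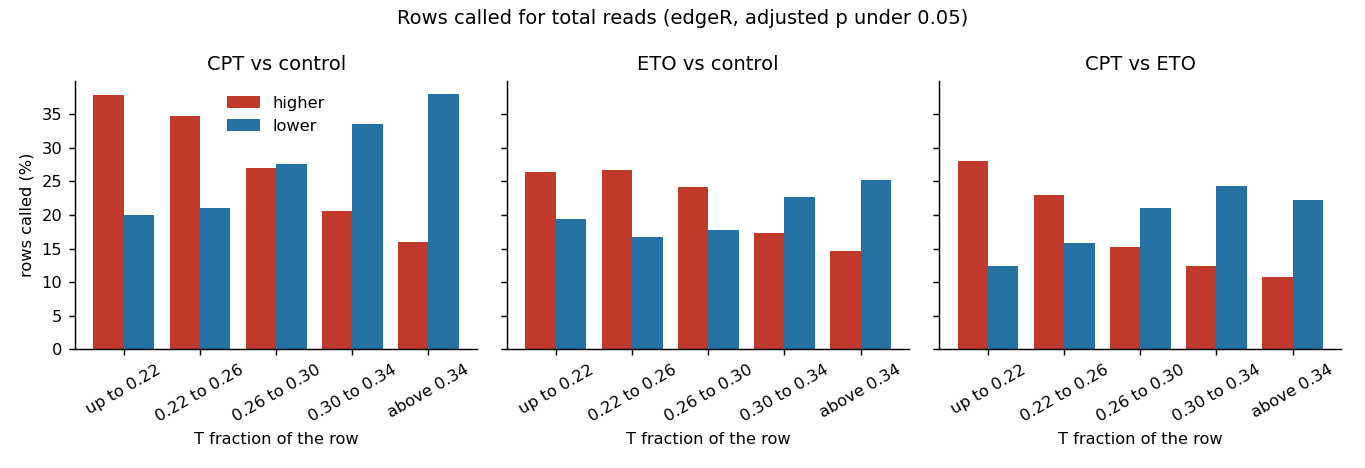
Percentage of rows called for total reads by edgeR (vertical axis) in 5 classes of T fraction (horizontal axis), for CPT against control, ETO against control and CPT against ETO, with bars for rows called higher and rows called lower. In CPT against control the bars for higher rows shrink from 37.9% in T-poor rows to 15.9% above a T fraction of 0.34.

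For CPT against control, a larger share of T-poor rows than of the rest of the window was called higher within narrower classes too. Among rows of under 600 bases 36.2% of T-poor rows and 24.5% of the others were called higher in CPT, and among rows of 1200 bases or more 39.2% and 23.4% were. Among rows with 10000 or more reads over the 9 libraries the shares were 40.1% and 24%. On chromosome 19, 33.7% of T-poor rows were higher and 26.9% lower, against 28.5% and 24.2% of the other rows there. Away from chromosome 19, 38.8% of T-poor rows were higher and 18.6% lower, against 23.9% and 30.9% of the other rows. Leaving aside rows with more than 10% multimapped reads, the shares called higher were 37.8% and 23.7%. The rule on reads is met over all 9 libraries together, so a row can pass it through the group where it is high. The limit of 100 reads a group used here was chosen after seeing the data. In the CPT libraries together 53 T-poor rows had under 100 reads, in the ETO libraries 16 and in the control libraries 36. Among the 1076 T-poor rows and 7094 other rows with at least 100 reads in every group, 38.3% and 24.1% were higher and 20.8% and 31.4% lower after CPT. For ETO on chromosome 19 more T-poor rows were lower (27.5%) than higher (21.8%), with a median log2 fold change of −0.03.

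Among called rows with separate groups and a mean of 100 or more reads in the higher one, the largest rises after CPT included those of RN7SK, L1CAM and BBC3. SCARNA2, PAX2 and CNN1 had 56, 6 and 25 reads in the control libraries together. They were members only through the treated libraries, where they are high. The rule itself favours a difference in them, so their values are given without a test. SCARNA2 (chr1:109100193-109100612, plus strand, GRCh38) is a small Cajal body RNA that guides the modification of spliceosomal RNA. It had 184, 176 and 208 CPM in CPT libraries, 45.0, 34 and 38.4 CPM in ETO libraries, and 0.703, 0.553 and 0.435 CPM in control libraries. CPT libraries were highest and control libraries under 1 CPM. RN7SK (chr6:52995621-52995948, plus strand) is the 7SK small nuclear RNA that holds back the elongation factor P-TEFb. It averaged 153 ± 17.6 CPM in CPT, 53.5 ± 6.45 CPM in ETO and 2.72 ± 0.578 CPM in control libraries (SD, n = 3 each). Its log2 fold changes were 5.82 ± 0.13 for CPT (SE; adjusted p = 1.03e-18) and 4.30 ± 0.13 for ETO (adjusted p = 4.91e-16), and 34.8% of its reads mapped to several places, so its split from near-identical copies is uncertain. Neither RNA is normally polyadenylated, and these libraries start from poly(A). Neither row held a conversion in any library. SCARNA2 had 0 conversions over 205181 covered Ts in the CPT libraries and RN7SK had 0 over 166364. A floor of 3 conversions would be a rate of 0.00146% and 0.0018%. This floor is not an upper limit, since a converted read mostly held more than 1 conversion.

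PAX2, a kidney and brain transcription factor, had 6.91, 3.74 and 5.66 CPM in CPT, 1.88, 1.92 and 2.20 CPM in ETO and 0.0639, 0.0922 and 0.0272 CPM in control libraries. Its control level rests on the 6 reads given above. CNN1, the smooth muscle protein calponin, averaged 8.39 ± 0.902 CPM in CPT, 1.97 ± 0.0828 in ETO and 0.237 ± 0.197 in control libraries. L1CAM, a neural cell adhesion molecule, averaged 12.1 ± 1.22 CPM in CPT, 3.81 ± 0.745 in ETO and 1.04 ± 0.0254 in control libraries (log2 fold changes 3.54 ± 0.21 and 1.87 ± 0.22, adjusted p = 1.62e-11 and 8.53e-07). SHANK3, a scaffold of nerve synapses, rose by 2.51 ± 0.18 after CPT and 2.32 ± 0.18 after ETO on the log2 scale, but all of its reads (100%) mapped to several places.

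The list of p53 targets and death genes had 4 T-poor members. After CPT 2 were higher and 0 lower, and after ETO 1 was higher and 0 lower. Shares over all rows tested were 23% higher and 24.6% lower after CPT, and 17.1% and 16.9% after ETO. T-poor rows had 37.9% and 19.9% after CPT, and 26.4% and 19.4% after ETO. The median log2 fold changes of the 4 were 0.76 for CPT and −0.06 for ETO. BBC3 (PUMA; 3′ UTR at chr19:47220824-47221700, minus strand) switches on the mitochondrial death pathway. It had 40.5, 44.5 and 50.8 CPM in CPT, 27.4, 29.6 and 20.5 CPM in ETO and 6.26, 7.43 and 7.97 CPM in control libraries. The 3 groups were separate, and it rose by 2.64 ± 0.14 after CPT (adjusted p = 1.05e-12) and 1.84 ± 0.13 after ETO (adjusted p = 1.2e-09) on the log2 scale. GADD45B (chr19:2477602-2478257, plus strand), a stress and DNA damage sensor, had 31.2, 33.8 and 41.0 CPM in CPT libraries, against 12.9, 15.0 and 14.4 CPM in control libraries, a log2 fold change of 1.33 ± 0.13 (adjusted p = 2.84e-08). In ETO libraries it had 14.6, 10.9 and 15.4 CPM, a range that overlaps the control (log2 fold change −0.06 ± 0.13, adjusted p = 0.793). The test of CPT against ETO gave 1.38 ± 0.13 for GADD45B (adjusted p = 7.1e-08). BAD and TP53I11 did not pass in either comparison with control, with log2 fold changes of 0.20 and 0.13 for CPT.

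All 4 T-poor members of the list of lysosome, secretory pathway and proteasome genes were higher after both treatments. Over all rows tested 23% were higher after CPT and 17.1% after ETO, and over T-poor rows 37.9% and 26.4%. The protease CTSD averaged 149 ± 5.61 CPM in CPT, 121 ± 10.6 in ETO and 92.7 ± 4.79 in control libraries, with log2 fold changes of 0.69 ± 0.07 and 0.38 ± 0.07 (adjusted p = 4.3e-08 and 0.000162). CTSA, a protective lysosomal carboxypeptidase, averaged 73.0 ± 5.98, 59.8 ± 2.53 and 41.2 ± 2.36 CPM in CPT, ETO and control libraries, and AP2S1, the small subunit of the clathrin adaptor AP-2, averaged 190 ± 12.9, 177 ± 7.02 and 135 ± 7.57 CPM. Medians of the 4 log2 fold changes were 0.76 for CPT and 0.46 for ETO. SMPD1 (chr11:6394608-6394996, plus strand), the lysosomal acid sphingomyelinase, is not on the list and was named for its size of change. It had 30.0, 33.4 and 38.0 CPM in CPT, 14.1, 10.6 and 9.85 CPM in ETO and 4.57, 4.55 and 4.16 CPM in control libraries, with log2 fold changes of 2.93 ± 0.14 and 1.37 ± 0.15 (adjusted p = 5.54e-13 and 2.56e-07).

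**Figure D2:**
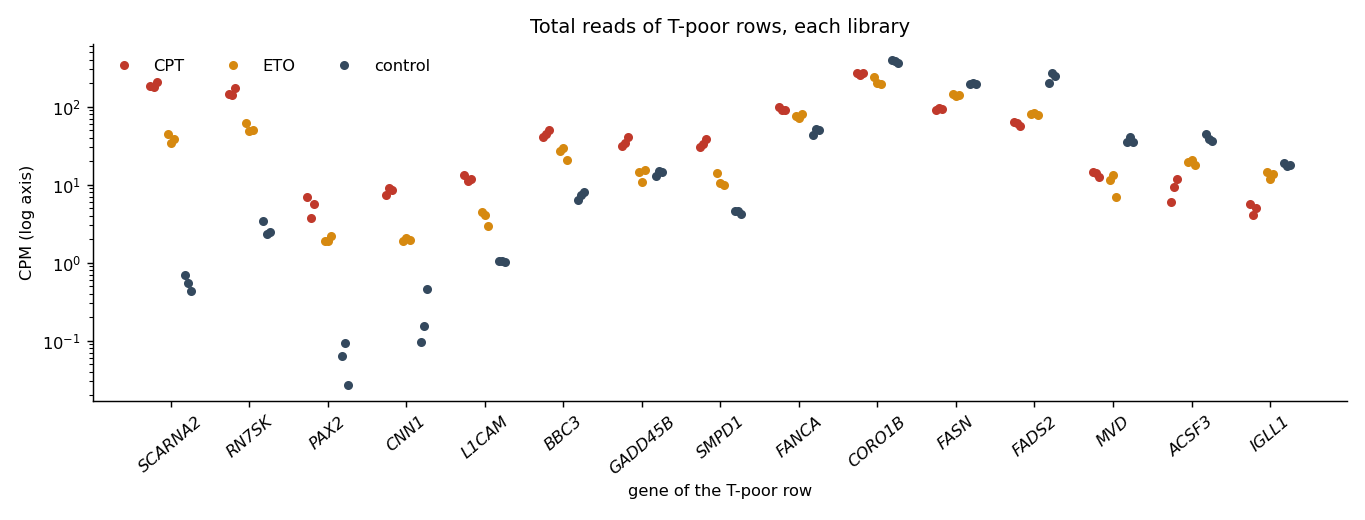
Total reads in CPM on a log axis for 15 genes of T-poor rows, with 1 point per library and the CPT, ETO and control libraries side by side. SCARNA2, RN7SK and PAX2 are at their lowest in control libraries, while FADS2, MVD and ACSF3 are at their highest there.

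FADS2, FASN, MVD, MVK and SLC25A1 were put together after their values were seen, so nothing is said of other genes of lipid synthesis. FADS2 (chr11:61865690-61867354, plus strand), a desaturase of polyunsaturated fatty acids, had 63.2, 61.1 and 57.2 CPM in CPT, 80.5, 82.2 and 77.4 CPM in ETO and 202, 268 and 245 CPM in control libraries. The groups did not overlap, and FADS2 fell by 1.98 ± 0.08 after CPT (adjusted p = 3.68e-14) and by 1.58 ± 0.08 after ETO (adjusted p = 3.49e-12) on the log2 scale. FASN (chr17:82078340-82079142, minus strand), the fatty acid synthase, averaged 92.8 ± 2.60 CPM in CPT, 141 ± 3.9 in ETO and 196 ± 3.94 in control libraries (log2 fold changes −1.08 ± 0.06 and −0.48 ± 0.06). MVD and MVK, enzymes of the mevalonate pathway to cholesterol, averaged 13.7 ± 1.19 and 28.6 ± 3.17 CPM in CPT, 10.6 ± 3.26 and 22.9 ± 0.467 in ETO, and 36.9 ± 3.16 and 41.7 ± 1.18 in control libraries. SLC25A1, which carries citrate out of mitochondria, averaged 45.3 ± 3.30 CPM in CPT, 35.3 ± 6.86 in ETO and 62.6 ± 4.54 in control libraries. The fall of FADS2 and FASN was larger after CPT (CPT over ETO −0.40 ± 0.08 and −0.60 ± 0.06, adjusted p = 0.000731 and 7.88e-08). MVK and SLC25A1 were higher in CPT than in ETO (0.32 ± 0.09 and 0.36 ± 0.11, adjusted p = 0.0124 and 0.0145), calls that were lost without CPT replicate 2 (adjusted p = 0.069 and 0.0784) and, for SLC25A1, without ETO replicate 3 (adjusted p = 0.115).

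The promoters of these genes were searched for CCAAT or its reverse complement ATTGG, the box bound by NF-Y, a factor known to act beside SREBP at sterol-responsive promoters. Promoter records were RefSeq stretches of 250 bases before to 50 bases after a gene start on GRCh38.p14, and 4 of the 5 genes had a record. CCAAT on either strand occurs in 34.6% of all 35116 promoter records. MVD had 3 matches, MVK 5 and SLC25A1 1, and FADS2 had 1 in 1 of its records and 0 in the other. A match is a description of letters in this window and not a bound site. The match closest to the gene start is shown in 30 bases of the gene's strand, 5′ to 3′, with the box in capitals, at chr16:88663159-88663188 (minus strand) for MVD, chr12:109573736-109573765 (plus strand) for MVK and chr22:19178904-19178933 (minus strand) for SLC25A1, where it begins 85, 46 and 185 bases before the gene start. That of FADS2, at chr11:61816397-61816426 (plus strand), begins 5 bases after the gene start of the record that holds it.
FADS2: tccgcaggacacCCAATcaccgggcaacag
MVD: ggctcgcacgggCCAATcctgtggtagcgc
MVK: tcgcgcgctctgATTGGctggcctgaagta
SLC25A1: tcggcctcggccATTGGctgcgctttggcc

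Metabolic lists held further T-poor members. Beside them, 23% of all rows tested were higher and 24.6% lower after CPT, and 17.1% and 16.9% after ETO. For T-poor rows the shares were 37.9% and 19.9% after CPT, and 26.4% and 19.4% after ETO. Of 10 members of glycolysis and central metabolism, 2 were higher and 5 lower after CPT, and 2 were higher and 6 lower after ETO, with median log2 fold changes of −0.30 and −0.36. PKM, the pyruvate kinase of the last step of glycolysis, averaged 1097 ± 33.9 CPM in CPT, 959 ± 24.2 in ETO and 788 ± 77.5 in control libraries and was higher in both (0.48 ± 0.06 and 0.28 ± 0.06, adjusted p = 5.45e-07 and 0.000542). SLC16A3, the lactate exporter MCT4, averaged 11.6 ± 0.630 CPM in CPT, 8.18 ± 1.19 in ETO and 25.3 ± 2.38 in control libraries. The call of PFKL after ETO was lost in 5 of the 9 fits that leave out a library (adjusted p up to 0.173), and that of IMPDH2 after CPT in 4 (up to 0.188). Of 6 members of respiratory chain and mitochondria, 1 was higher and 3 lower after CPT, and 1 was higher and 2 lower after ETO. ATP5F1D, a subunit of ATP synthase, averaged 18.3 ± 1.71 CPM in CPT, 18.6 ± 3.76 in ETO and 47.4 ± 2.75 in control libraries. TIMM13, a chaperone of the mitochondrial intermembrane space, had 391, 386 and 396 CPM in CPT, 568, 535 and 514 CPM in ETO and 401, 419 and 406 CPM in control libraries, and rose after ETO alone among the comparisons with control (0.40 ± 0.05, adjusted p = 2.51e-06). CPT and ETO libraries of TIMM13 did not overlap (CPT over ETO −0.46 ± 0.05, adjusted p = 4.73e-07).

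Of 11 T-poor members of T cell receptor signalling, 5 were higher and 1 lower after CPT, and 0 were higher and 3 lower after ETO, beside 23% higher and 24.6% lower over all rows after CPT and 17.1% and 16.9% after ETO. The median log2 fold changes were 0.18 for CPT, −0.21 for ETO and 0.38 for CPT over ETO, and in that last comparison 9 of the 11 were higher and 0 lower, beside 13.5% higher and 16.3% lower over all rows and 28.0% of T-poor rows higher. TRAF1, an adaptor of TNF receptors, averaged 5.64 ± 1.10 CPM in CPT, 2.32 ± 0.185 in ETO and 2.37 ± 0.353 in control libraries (CPT over control 1.25 ± 0.24, adjusted p = 0.000171). GRAP, an adaptor that binds Ras activators, averaged 66.7 ± 4.80 CPM in CPT, 52.5 ± 5.95 in ETO and 45.8 ± 3.28 in control libraries (CPT over control 0.54 ± 0.09, adjusted p = 2.83e-05). CD7, a T lineage surface protein, CD27, a costimulatory receptor, and the tetraspanin CD82 also rose after CPT, by 0.81 ± 0.14, 1.30 ± 0.35 and 0.33 ± 0.08. CD5, a surface brake on receptor signalling, was lower after both treatments (−0.64 ± 0.12 and −0.47 ± 0.11, adjusted p = 0.000103 and 0.00247). PTPN7, a phosphatase of blood cells that acts on MAP kinases, had 150, 146 and 152 CPM in CPT, 129, 122 and 115 CPM in ETO and 146, 145 and 158 CPM in control libraries, and fell after ETO (−0.30 ± 0.06, adjusted p = 0.000655). The call of CD6 after ETO (−0.28 ± 0.09, adjusted p = 0.0216) was lost without ETO replicate 2 or 3 and without control replicate 2 or 3 (adjusted p up to 0.101). Of the 9 calls in CPT over ETO, those of CD6, CD7, DGKZ and TRAF2 were each lost without at least 1 library.

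Genome maintenance genes fell into a pair of lists. Of all rows tested, 23% were higher and 24.6% lower after CPT, and 17.1% and 16.9% after ETO. Of T-poor rows, 37.9% were higher and 19.9% lower after CPT, and 26.4% and 19.4% after ETO. Of 6 members of DNA repair and topoisomerases, 2 were higher and 1 lower after CPT, and 3 were higher and 2 lower after ETO. FANCA, a core protein of the Fanconi anaemia crosslink repair complex, had 98.7, 90.2 and 89.3 CPM in CPT, 76.8, 71.4 and 79.6 CPM in ETO and 43.4, 51.1 and 50.6 CPM in control libraries (log2 fold changes 0.94 ± 0.08 and 0.65 ± 0.08, adjusted p = 2.17e-09 and 1.13e-06). The calls of RAD9A after CPT and of ERCC2 and POLL after ETO were lost without at least 1 library (adjusted p up to 0.150, 0.109 and 0.0702). Of 4 members of cell cycle and DNA replication, 3 were higher and 0 lower after CPT, and 1 was higher and 0 lower after ETO. CDT1, which licenses replication origins, had 309, 295 and 299.4 CPM in CPT libraries, above the 197, 237 and 237 CPM of control libraries (0.43 ± 0.07, adjusted p = 2.1e-05), while ETO libraries had 218, 204 and 191 CPM (−0.13 ± 0.07, adjusted p = 0.145). POLE, the leading-strand polymerase, rose by 0.52 ± 0.07 after CPT, and its call after ETO (0.23 ± 0.07, adjusted p = 0.0102) was lost without control replicate 3 (adjusted p = 0.0736). CHAF1A lost its call after CPT without CPT replicate 1 or 3 or control replicate 2 or 3 (adjusted p up to 0.172).

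Regulators of chromatin, RNA, G proteins and the cytoskeleton moved in both directions. Their counts stand beside 23% higher and 24.6% lower over all rows after CPT, and 17.1% and 16.9% after ETO. They also stand beside 37.9% and 19.9% of T-poor rows after CPT, and 26.4% and 19.4% after ETO. Of 8 members of chromatin and transcription regulators, 3 were higher and 1 lower after CPT, and 3 were higher and 0 lower after ETO. TFE3, a transcription factor that switches on lysosomal genes, averaged 75.8 ± 7.68 CPM in CPT, 41.9 ± 4.68 in ETO and 28.4 ± 2.69 in control libraries (1.41 ± 0.10 and 0.56 ± 0.10, adjusted p = 1.16e-10 and 0.00011). POLR2E, a subunit shared by the nuclear RNA polymerases, averaged 506 ± 23.1 CPM in CPT, 551 ± 38.1 in ETO and 415 ± 43.2 in control libraries and was higher in both. HDAC7, a histone deacetylase of thymocytes, had 593, 596 and 602 CPM in CPT, 548, 572 and 620 CPM in ETO and 706, 571 and 490 CPM in control libraries, and passed in neither comparison with control. MED15 lost its call after CPT without CPT replicate 1 or 2 or control replicate 1 (adjusted p up to 0.0861). Of 4 members of RNA processing and translation, 0 were higher and 2 lower after CPT, and 2 were higher and 1 lower after ETO. LSM7, of the rings that bind U6 and decaying messages, averaged 123 ± 7.32, 147 ± 10.3 and 193 ± 28.9 CPM in CPT, ETO and control libraries (−0.66 ± 0.08 and −0.39 ± 0.08, adjusted p = 1.45e-06 and 0.000883). NOP2, a ribosomal RNA methyltransferase, averaged 103 ± 1.84 CPM in CPT, 132 ± 11.0 in ETO and 111 ± 4.40 in control libraries, and its call after ETO was lost without ETO replicate 3 (adjusted p = 0.0539).

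Of 6 members of G proteins and small GTPase regulators, 3 were higher and 2 lower after CPT, and 1 was higher and 2 lower after ETO. All rows tested had 23% higher and 24.6% lower after CPT, and 17.1% and 16.9% after ETO. T-poor rows had 37.9% and 19.9% after CPT, and 26.4% and 19.4% after ETO. ARHGAP4, a GTPase activating protein of blood cells, averaged 86.7 ± 6.51 CPM in CPT, 63.2 ± 3.28 in ETO and 39.0 ± 6.07 in control libraries (1.15 ± 0.09 and 0.70 ± 0.09, adjusted p = 1.87e-09 and 5.84e-06). ARHGDIA, which holds small GTPases in the cytosol, averaged 214 ± 10.2, 188 ± 21.8 and 291 ± 13.0 CPM in CPT, ETO and control libraries and was lower in both. The call of GNA11 after CPT was lost in 7 of the 9 fits that leave out a library (adjusted p up to 0.249). Of 4 members of cytoskeleton and lamina, 3 were higher and 1 lower after CPT, and 2 were higher and 2 lower after ETO. CORO1B, a coronin that binds actin branches, had 266, 255 and 270 CPM in CPT, 240, 203 and 196 CPM in ETO and 394, 388 and 359 CPM in control libraries. CORO1B fell by 0.53 ± 0.07 after CPT and 0.84 ± 0.07 after ETO (adjusted p = 9.73e-07 and 4.04e-09). STMN3, a microtubule destabiliser, averaged 184 ± 1.53, 155 ± 1.15 and 122 ± 10.1 CPM in CPT, ETO and control libraries, and FLNA, the actin crosslinker filamin A, averaged 420 ± 26.4, 395 ± 22.1 and 312 ± 10.6 CPM. The row of ZYX, with 98.2% multimapped reads, lost its call after CPT in 8 of the 9 fits that leave out a library (adjusted p up to 0.359). Of signal-induced genes 2 were T-poor, HES6 and NFKBIE, with 0 called after CPT and HES6 lower after ETO, a call lost in 5 of the 9 fits (adjusted p up to 0.110). No member of the stress response list was T-poor.

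Further rows with large falls after CPT belonged to genes of varied roles. ACSF3, a mitochondrial malonyl-CoA synthetase, had 6.00, 9.21 and 11.7 CPM in CPT, 19.2, 20.9 and 18.0 CPM in ETO and 44.1, 38.1 and 36.4 CPM in control libraries (CPT −2.15 ± 0.15, adjusted p = 2.65e-10). IGLL1, the surrogate light chain of early B cells, averaged 4.91 ± 0.824 CPM in CPT, 13.4 ± 1.31 in ETO and 18.1 ± 0.795 in control libraries. BCAT2, the mitochondrial branched-chain aminotransferase, averaged 13.7 ± 0.769 CPM in CPT, 22 ± 1.90 in ETO and 38.2 ± 1.73 in control libraries. MYO7B, a myosin of brush borders, RHOV, a small GTPase, and P2RY11, an ATP receptor, had log2 fold changes between −2.12 and −1.54 for CPT. DOC2A, a calcium sensor of vesicle release, had 63 reads in the CPT libraries together, 363 in the ETO and 449 in the control libraries, and was a member only through the ETO and control libraries. The largest falls after ETO, besides MVD and SLC16A3, included those of PYM1, a factor that strips exon junction complexes (1.63 ± 0.338 CPM in ETO against 5.05 ± 0.171 in control), C1QL4 and GNA15, a G protein alpha subunit of blood cells. PYM1 averaged 4.68 ± 1.06 CPM in CPT libraries, where it did not pass against control (adjusted p = 0.708). The rises after ETO also held MZF1-AS1, an antisense transcript, CEP72, a centrosomal protein, and SCNN1D, a sodium channel subunit, with log2 fold changes between 1.44 and 1.52.

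Between the treatments, the rows lowest in CPT relative to ETO were DOC2A, HSD11B2, IGLL1 and NDUFAF2. NDUFAF2, an assembly factor of respiratory complex I, had 23.8, 29.7 and 23.8 CPM in CPT and 53.2, 57.7 and 64.8 CPM in ETO libraries, beside 59.6, 56.7 and 59.2 CPM in control libraries (CPT over ETO −1.18 ± 0.10, adjusted p = 6.69e-09). HSD11B2, which inactivates cortisol, averaged 5.85 ± 1.87 CPM in CPT, 16.8 ± 1.99 in ETO and 12.4 ± 0.422 in control libraries. Highest in CPT relative to ETO were SCARNA2, CNN1, DISP3 and ITGB2-AS1. DOC2A had 63 reads in the CPT libraries together and was a member only through the ETO and control libraries. CNN1 had 532 reads in CPT, 185 in ETO and 25 in control libraries, and met the read rule only through CPT. The rule itself favours a difference in both rows, so their places are given without a test. DISP3, a sterol-sensing domain protein, averaged 7.84 ± 1.63 CPM in CPT, 2.11 ± 1.09 in ETO and 2.45 ± 0.329 in control libraries, and ITGB2-AS1, antisense to an integrin gene, averaged 7.25 ± 0.472, 1.95 ± 0.266 and 1.52 ± 0.624 CPM.

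Among the 6 named rows with the most reads, RPL18, a protein of the large ribosomal subunit, had 1210, 1082 and 1056 CPM in CPT, 1142, 1066 and 1135 CPM in ETO and 1535, 1584 and 1583 CPM in control libraries. RPL18 fell by 0.49 ± 0.05 after each treatment (adjusted p = 6.09e-08 and 1.59e-07). PPDPF, known as a pancreatic progenitor factor, averaged 614 ± 32.5 CPM in CPT, 561 ± 14.1 in ETO and 529 ± 26 in control libraries and passed for CPT only (0.22 ± 0.05, adjusted p = 0.00181), and SEPTIN9, a septin of the cytoskeleton, passed in neither comparison with control.

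T-to-C rates of T-poor rows were low in every group. The median over rows, averaged over 3 libraries, was 0.00333% ± 0.00576 in CPT, 0.104% ± 0.0123 in ETO and 0.104% ± 0.00370 in control libraries (SD, n = 3 each). In 2 of the 3 CPT libraries the median row held no conversion, and in CPT libraries 48.8 to 54.2% of T-poor rows held none, against 26.7 to 31.1% in ETO and 18.7 to 20.9% in control libraries. CPT libraries held the fewest reads on these rows, 863279 to 1090201, against 1108363 to 1757770 in ETO and 1383550 to 1661005 in control libraries. Zero counts and row medians vary with depth as well as rate, and the part of depth was not tested. Pooled over all covered Ts of the 1163 rows, the rate was 0.0839, 0.0874 and 0.0897% in the CPT libraries, 0.164, 0.169 and 0.162% in the ETO libraries and 0.137, 0.135 and 0.135% in the control libraries, so the 3 groups did not overlap. The pooled CPT rate was 0.642 times that of control and the pooled ETO rate 1.22 times, against 0.665 and 1.18 times in the rest of the window.

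T-poor rows had lower rates than the rest of the window in each of the 9 libraries. Their pooled rate was between 0.661 and 0.746 times that of the rest, which averaged 0.128% in CPT, 0.227% in ETO and 0.193% in control libraries. Reads with a conversion made up 0.746% ± 0.0183 of T-poor reads in CPT, 1.37% ± 0.0337 in ETO and 1.17% ± 0.0115 in control libraries, against 1.44%, 2.42% and 2.22% in the rest of the window. Median rates climbed with the T fraction in all groups, and control libraries had 0.104, 0.167, 0.210, 0.254 and 0.311% from the lowest to the highest class. Pooled rates did not climb evenly, with 0.135, 0.164, 0.190, 0.171 and 0.243% in control libraries.

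**Figure D3:**
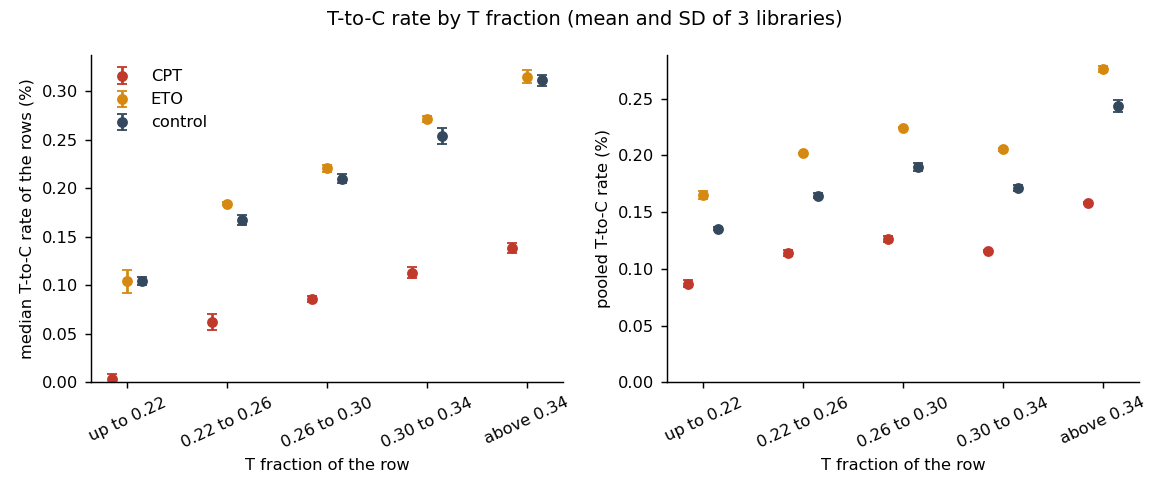
T-to-C rate in percent (vertical axis, from 0) by class of T fraction (horizontal axis), as the median over rows and as the rate pooled over all covered Ts, with the mean and SD of 3 libraries in each group. T-poor rows have the lowest rate of the 5 classes in all 3 groups on both measures.

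The rate per covered T still differed with the number of Ts a read covers. In each library no row without a converted read held a conversion, and among rows with exactly 1 converted read 60.6 to 72.0% held 2 conversions and 6.23 to 10.9% held 1. A converted read of a T-poor row held 2.19 conversions on average in CPT, 2.27 in ETO and 2.19 in control libraries. Within classes of Ts per read, the median rate of T-poor rows in control libraries was 0.490 times that of the rest in rows with up to 14 Ts per read, 0.725, 0.802 and 0.762 times in the classes between 14 and 23, and 0.926, 0.861 and 0.942 times in the classes above 23. In rows with 23 to 26 Ts per read, T-poor rows had a median of 0.0791% ± 0.00487 in CPT, 0.195% ± 0.00863 in ETO and 0.191% ± 0.00824 in control libraries, against 0.0852% ± 0.00758, 0.225% ± 0.00499 and 0.206% ± 0.00417 in the rest. For the classes 23 to 26, 26 to 29 and above 29, CPT libraries had ratios of 0.929, 0.795 and 0.778 to the rest. ETO libraries had 0.863, 0.751 and 0.950 there. The part of Ts per read in the lower rates of T-poor rows was not tested beyond these classes. Across the 1163 rows the control rate had a Spearman correlation of 0.33 with Ts per read and 0.16 with the T fraction, and across the 201 rows with 20000 or more covered Ts in every library 0.53 and 0.10, as descriptions over rows that share libraries and are not replicates. The highest control rate, 11.1%, came from a row with 0.182 covered Ts per read, where few Ts stand behind the value.

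**Figure D4:**
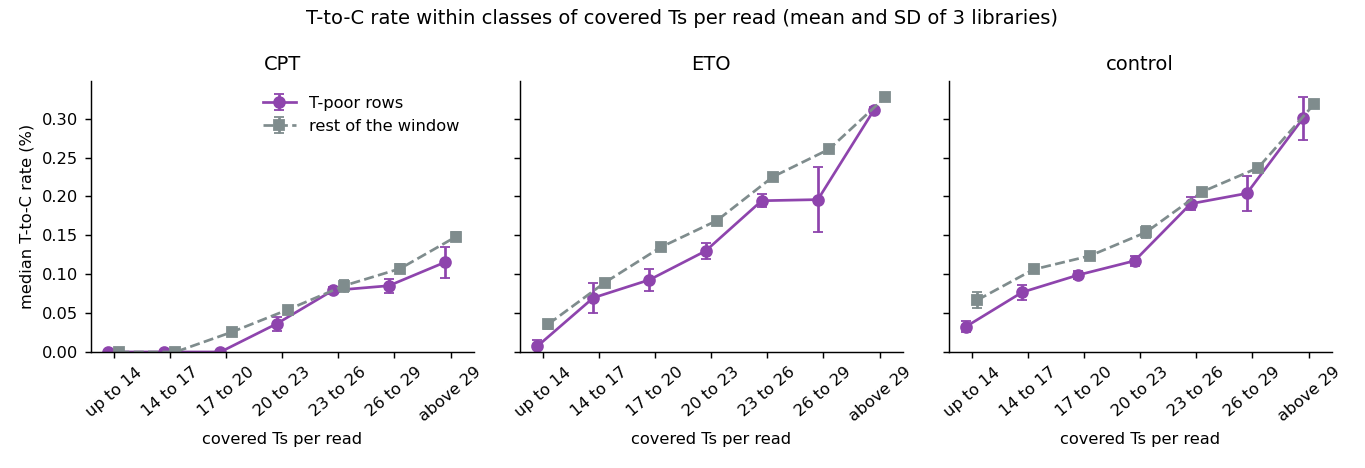
Median T-to-C rate in percent (vertical axis) in 7 classes of covered Ts per read (horizontal axis) for T-poor rows and the rest of the window, with 1 panel each for CPT, ETO and control and the mean and SD of 3 libraries. Rates climb with Ts per read in both sets, and in control libraries T-poor rows lie at 0.490 times the rest in the lowest class and 0.942 times in the highest.

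RAI1 (chr17:17809982-17811453, plus strand), a chromatin regulator dose-sensitive in development, had the highest control rate among the 201 deeply covered rows, with 0.504, 0.325 and 0.625% in CPT, 0.758, 0.897 and 0.849% in ETO and 0.801, 0.757 and 0.669% in control libraries. PLEKHF1, a lysosome-associated protein, had 0.292, 0.259 and 0.389% in CPT, 1.03, 1.23 and 0.983% in ETO and 0.680, 0.743 and 0.637% in control libraries, and the 3 groups did not overlap. The call of PLEKHF1 was made between the treatments (CPT over ETO −1.81 ± 0.35, adjusted p = 0.0105) and not for CPT against control (adjusted p = 0.0573). HS6ST1, a heparan sulphate sulfotransferase with 16.6% multimapped reads, KEAP1, the sensor that holds back NRF2, CCDC137, RNF216, an E3 ubiquitin ligase, DPAGT1, the first enzyme of N-glycan assembly, and TWNK, the mitochondrial DNA helicase, followed with control means between 0.380 and 0.525%.

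At the low end, NDUFS7, a subunit of respiratory complex I, averaged 0.0157% ± 0.0271 in CPT, 0.00573% ± 0.00992 in ETO and 0.00314% ± 0.00544 in control libraries, with 12, 4 and 4 conversions in all, too few to fix its rate. PPDPF had 0, 0.0042 and 0.00911% in CPT, 0.0700, 0.0342 and 0.0201% in ETO and 0.00949, 0.00996 and 0.00817% in control libraries, with ETO above both other groups. In edgeR's test its rate did not pass for ETO against control (2.02 ± 0.59, adjusted p = 0.376). It passed for CPT over ETO (−3.13 ± 0.68, adjusted p = 0.0148). PRAF2, GPS1, a subunit of the COP9 signalosome, CHID1, PFKL, the liver type phosphofructokinase, ZMIZ2 and PKM followed with control means between 0.0119 and 0.0272%. Among these 8 genes of low rate, neighbours in the order of control means overlap within their SDs. Total reads of the genes at the 2 ends moved in both directions, with GPS1 higher after CPT (0.73 ± 0.07) and CHID1 lower (−0.59 ± 0.07), DPAGT1 lower (−0.47 ± 0.07) and KEAP1 higher (0.52 ± 0.07).

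**Figure D5:**
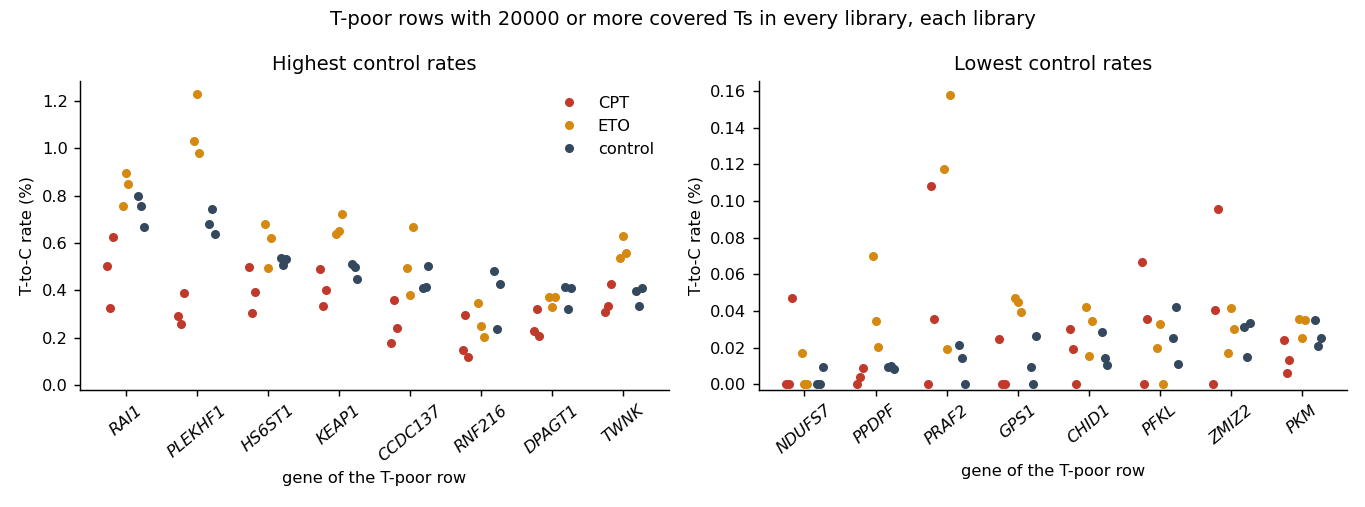
T-to-C rate in percent (vertical axes, with separate scales) in each library for the 8 T-poor genes with the highest and the 8 with the lowest control rates among rows with 20000 or more covered Ts in every library, with CPT, ETO and control libraries side by side. RAI1 lies between 0.669 and 0.801% in control libraries, and PKM between 0.0209 and 0.0353%.

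Genes of the lists differed in their control rate. The 4 members of cell cycle and DNA replication ranged between 0.245 and 0.436%, and the 4 members of the lysosome, secretory pathway and proteasome list between 0.0422 and 0.113%. The 4 p53 targets and death genes ranged between 0.0436 and 1.17%, with GADD45B at the top. GADD45B had 0.485, 0.516 and 0.564% in CPT, 2.20, 1.66 and 2.70% in ETO and 1.08, 0.958 and 1.48% in control libraries. The rate of GADD45B passed for CPT over ETO (adjusted p = 0.0223, up to 0.0607 without 1 library), and neither for CPT against control (adjusted p = 0.142) nor for ETO against control (adjusted p = 0.870).

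The rate could be tested in 835 T-poor rows with 30 or more conversions, which is 71.8% of them against 90.5% of the rest of the window. After CPT 0 rows were higher (background 0.067%) and 63 were lower (7.54%, background 10.4%), with edgeR's quasi-likelihood test at an adjusted p under 0.05. The median log2 fold change was −1.08 for T-poor rows (−1.05 with groups at 0 set to the floor of 3 conversions), −0.98 for the rest of the window and −1.01 over all rows tested. It differed with depth, with −1.96 in T-poor rows of under 2000 reads, −1.24 from 2000 and −0.77 from 10000 reads. In the rest of the window these medians were −1.81, −1.11 and −0.77. None of the 63 calls held in all 9 fits that leave out a library. The count was 0 without any 1 of the 3 control libraries, 36 without ETO replicate 1, 41 without ETO replicate 3 and 99 without CPT replicate 3. When each library's converted and unconverted counts were scaled to their own totals, the median of all rows moved to −0.41 and 2 calls were left among T-poor rows, so the falls named here are not relative to the fall of the whole library.

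Of the 63 rows, 26 held no conversion in any CPT library. SGTA, a chaperone of tail-anchored proteins, had 0% in all CPT libraries, 0, 0.0489 and 0.0647% in ETO and 0.363, 0.214 and 0.253% in control libraries. With 3 conversions over the group as the floor, it was 21.8-fold lower in CPT than in control. A converted read of a T-poor row held 2.19 conversions on average in CPT libraries, so folds at this floor are not lower bounds. At the floor EPS15L1, an endocytic adaptor, was 19.8-fold lower, NTMT1, an N-terminal methyltransferase, 19-fold, and LZTR1, an adaptor for the breakdown of RAS proteins, 19-fold. LAMTOR4, of the lysosomal complex that recruits mTORC1, was 14.9-fold lower, PLEKHA4 11.4-fold and GIPC1 10.3-fold. LAMTOR4 rested on 0 conversions over 103519 covered Ts in CPT, 101 over 135870 in ETO and 87 over 201613 in control libraries. NKD2, 13.0-fold lower at the floor, had 100% multimapped reads. Total reads of these rows did not all move with the rate. SGTA averaged 30.2 ± 5.59 CPM in CPT and 35.0 ± 3.71 in control libraries (adjusted p = 0.143), LZTR1 averaged 28.3 ± 2.45 and 19.3 ± 1.86 CPM and was higher, and PLEKHA4 averaged 10.8 ± 1.37 and 24.7 ± 4.12 CPM and was lower.

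Other rows among the 63 held conversions in every group, and the 4 given here were chosen after their values were seen. PSMG3 (chr7:1567351-1567697, minus strand), a proteasome assembly chaperone, had 0.139, 0.121 and 0.101% in CPT, 0.239, 0.289 and 0.238% in ETO and 0.272, 0.26 and 0.236% in control libraries. CPT libraries were below both other groups, with 752 conversions in CPT, 2648 in ETO and 2321 in control libraries and a log2 fold change of −1.10 ± 0.17 against control (adjusted p = 0.0115). Its total reads did not pass after CPT (0.12 ± 0.05, adjusted p = 0.0641). RNF166, an E3 ubiquitin ligase, averaged 0.141% ± 0.0336 in CPT, 0.295% ± 0.0184 in ETO and 0.272% ± 0.00842 in control libraries (−0.97 ± 0.23, adjusted p = 0.0284), while its total reads were higher after CPT (0.53 ± 0.08). CLPP, a mitochondrial protease, averaged 0.0456% ± 0.0177, 0.107% ± 0.0223 and 0.117% ± 0.0199 (−1.38 ± 0.30, adjusted p = 0.0246), and PUS1, a pseudouridine synthase, 0.148% ± 0.0453, 0.398% ± 0.0517 and 0.334% ± 0.0350 in CPT, ETO and control libraries (−1.20 ± 0.33, adjusted p = 0.0468). Of list members, TFE3, NFKBIE, AP2S1 and CDCA3, a cell division factor, were also among the 63. Without 1 library the adjusted p of PSMG3 reached 0.0693, that of RNF166 0.111, that of CLPP 0.102 and that of PUS1 0.149.

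After ETO, edgeR called 0 T-poor rows higher (background 0.302%) and 0 lower (background 0.0168%) in rate. At an unadjusted edgeR p under 0.05, 32 of the 835 were higher and 20 lower, beside 641 and 157 of all 11937 rows tested. DESeq2 called 2 T-poor rows higher and 3 lower, beside 101 and 18 over all rows. The median edgeR log2 fold change was 0.22 over T-poor rows, against 0.14 over all rows tested. Between the treatments 0 rows were higher in CPT (background 0.0251%) and 117 were lower than in ETO (14%, background 20.9%), and 35 of these held in all 9 fits. LAMTOR4, EPS15L1, MTFP1, a mitochondrial fission protein, and PLEKHA4 each had 0 conversions in CPT. At the floor of 3 conversions they were 25.7-fold, 26.6-fold, 21.5-fold and 30.8-fold lower in CPT than in ETO libraries, values that are not lower bounds. Their adjusted p stayed under 0.05 without any 1 library, the highest being 0.0134 for LAMTOR4, 0.0279 for EPS15L1, 0.0198 for MTFP1 and 0.0422 for PLEKHA4. Other fits gave differing numbers of calls of CPT against ETO among T-poor rows. With counts scaled to their own totals 1 was left, so these falls are not relative to the fall of the whole library. With only the 2 groups 6 were left, and with the replicate block 66. DESeq2 called 250 lower and 3 higher.

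Of the 1163 rows, 354 held no conversion in the CPT libraries (30.4%, against 12.5% of the rest of the window), 172 none in the ETO libraries (14.8% against 3.87%), 95 none in the control libraries (8.17% against 1.95%) and 50 none in any of the 9 (4.30% against 0.823%). CPT libraries held the fewest reads on T-poor rows, and the part of depth in these counts was not tested. Just inside the limit on T fraction lay HSD11B2, with 121 Ts in 550 bases and a control rate of 0.132% ± 0.0441, and CD68, with 132 Ts in 600 bases and 0.713% ± 0.311. Just outside lay SEMA3G, with 565 Ts in 2568 bases and 0.591% ± 0.281, and TLE5, with 200 Ts in 909 bases and 0.117% ± 0.0175.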

How the data were processed

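Jurkat SLAM-seq libraries (QuantSeq 3′ ends of poly(A) RNA, per the labels) were read from tables with 1 row per annotated 3′ UTR. The deposited tables hold counts of reads, converted reads, conversions, covered Ts and multimapped reads, made with slamdunk 0.4.3 per the file headers. The 3′ UTRs are those of GENCODE V33, per the file headers, on GRCh38, per the submitters' processing notes. The sources used here do not give the settings of mapping, multimapping, variant masking and conversion calling. Where a group held 0 conversions, a floor of 3 was used. The reads carry no molecular identifiers and a converted read mostly held more than 1 conversion, so this floor is not a limit on the rate.

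Rows of 1 strand that overlap were grouped before any filter, and the row with the most reads stood for the group. Gene names came from RefSeq promoter and gene tables (GRCh38.p14) for rows ending within 1000 bases of a gene's end, and only such rows are named. Overlapping genes and near-identical copies may share reads. The members and gene lists were chosen with earlier results of these data known.

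For total reads, edgeR's quasi-likelihood test (edgeR 4.0.16, R 4.3.3) was fitted to all 9 libraries, after filterByExpr and TMM scaling over all nuclear rows. The T-to-C rate was tested likewise on converted and unconverted covered Ts with a term per library, for rows with 30 or more conversions. Benjamini-Hochberg adjustment ran over all rows tested, at 0.05. Standard errors (SE) were derived from the F statistic. CPM used TMM-scaled library sizes. DESeq2 1.42.0 was an alternative. The fits were tested on simulated data.

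Named genes had the 8 highest and 8 lowest control rates among rows with 20000 or more covered Ts in every library, or the 6 most reads, or, per comparison with control, measure and direction, were among the 8 largest fold changes (4 for CPT against ETO) past the threshold with groups that do not overlap and a mean of 100 reads or 20 conversions in the higher group. The up to 4 most read members of each list with 3 or more, and the 2 rows on each side of the T limit, were named too. Other list members, the lipid genes and the 4 rate genes with conversions in all groups were chosen after their values were seen. Results for some genes are not reported here.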

Additional observations from a re-analysis of the deposited data

How the results depend on the processing

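For total reads, all alternatives other than another T limit kept the number of T-poor rows called within 1.5 times. At a T fraction of 0.20 or less the counts were 324 (CPT against control), 260 (ETO against control) and 223 (CPT against ETO), and at 0.24 or less 1095, 851 and 781. Rate calls moved more, and the cause was not tested. For CPT against control (63) they came to 162 with DESeq2, 2 relative to the library, 15 with only the 2 groups, 23 at a T fraction of 0.20, 108 at 0.24 and 0 to 99 without 1 library. For ETO against control (0) they came to 5 with DESeq2, 10 with only the 2 groups and 1 at 0.24. For CPT against ETO (117) they came to 253 with DESeq2, 1 relative to the library, 6 with only the 2 groups, 49 at 0.20, 228 at 0.24 and 55 to 151 without 1 library. The median CPT rate was 0.0234% at 0.24, 0.0693% in rows with 20000 covered Ts and 0.0870% pooled. The median ETO rate was 0.0792% at 0.20, 0.130% at 0.24, 0.122% in rows with 20000 covered Ts and 0.165% pooled. The median control rate was 0.0809% at 0.20, 0.127% at 0.24, 0.0989% in rows with 20000 covered Ts, 0.109% both with at most 10% multimapped reads and with at least 100 reads in every group (both chosen after seeing the data), and 0.135% pooled. Samples that share a replicate number did not deviate together (correlations −0.0622 to 0.00753), and the replicate block gave 663, 519 and 458 calls for total reads and 16, 0 and 66 for the rate. Over the 52 results for genes named by their size of change and 824 alternatives, 781 kept their call, 43 lost it, all of them rates, and 0 reversed. The 52 include total-read results of SCARNA2, PAX2, CNN1 and DOC2A. The read rule itself favours a difference in these rows, so their kept calls carry no weight. Calls in total reads of other list members were not among the 52 results. Some of those calls were lost without 1 library, as given beside the genes for the calls printed. Depth limits the rate in most rows: 201 of 1163 had 20000 covered Ts in every library.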
